A study of Homo sapiens with 12 samples.

Results

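The zinc finger genes of chromosome 19 were described in OCI-AML3, a human acute myeloid leukaemia line that carries an NPM1 mutation, and in 3 clones made from it. Members were the genes with a name of the form ZNF followed by a number and at most 1 letter, placed wholly on chromosome 19. They also had a mean of at least 1 CPM, a gene's counts scaled to the size of the library, in at least one genotype. Of 252 such names in the table, 196 met the minimum, out of 26259 genes in all. All 196 passed the filter on low counts and were tested among 14010 genes. Of the other 56, 24 had no count in any library. Just inside the minimum lay ZNF878, with a highest group mean of 1 CPM, and just outside lay ZNF599, with 0.978 CPM.

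Poly(A)-selected RNA was sequenced in 12 libraries, 3 for each of 4 genotypes. Parental cells (wt) were set beside clones labelled CD33 KO, CD123 KO and CD33/CD123 KO, the last with both genes targeted. CD33 is a lectin-type surface receptor of the myeloid lineage. CD123, encoded by IL3RA, binds interleukin-3. The clones came from wt cells electroporated with Cas9 ribonucleoprotein, enriched by magnetic and flow sorting and grown from single cells. Each knockout genotype was 1 clone, and an unedited clone was not analysed here, so effects of the edit and of the clone cannot be told apart. The labels do not say that the libraries of a group came from separate cultures. The p-values therefore measure the spread between these libraries only, which may be technical. Libraries are numbered 1 to 3 within a group.

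Zinc finger proteins of this family read DNA through a row of zinc-binding fingers. Most of those encoded on chromosome 19 also carry a KRAB box, which recruits the corepressor TRIM28 (also called KAP1). TRIM28 in turn brings the histone methyltransferase SETDB1, heterochromatin protein 1 and the NuRD complex to the bound site. Many of these proteins bind transposable elements, and the gene clusters themselves lie in chromatin with repressive histone methylation. The clusters grew by repeated duplication, so neighbours often resemble each other in sequence.

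Total counts were 15583315 to 61827969 per library, and the members took 0.245% to 0.275% of them. A count of 3 in a library was worth 0.0504 to 0.187 CPM. Members' levels below about that value rest on a few reads, and this covers counting error only. Within groups, pairs of libraries differed by more than sampling noise, with a chi-square of 2.45 to 13.6 per gene. All 12 genes listed as myeloid markers stood at 1 CPM or more in wt, with MPO at 2.05 CPM. The list includes NPM1, which is not restricted to myeloid cells, so the sum is not of myeloid markers alone. The sum of the 12 moved with the groups, from 4400 to 4470 CPM in the wt libraries to 6200 to 6990 CPM in those of the clones. Its part in the results was not tested. NPM1 went from 1340 CPM in wt to 1940, 1680 and 1710 in the CD33 KO, CD123 KO and CD33/CD123 KO clones. LYZ went from 170 to 306, 1620 and 610 CPM in the same order. PTPRC fell from 437 to 396, 335 and 344 CPM, and SPI1 went from 251 to 248, 273 and 241 CPM, so the listed markers did not all rise. The summed markers of erythroid, T and NK, B, megakaryocyte and fibroblast or epithelial cells were at most 2.55 CPM in any library. The edited genes were still read in their own clones. CD33 stood at 50.4 CPM in wt, 39.9 in CD33 KO cells, 54.5 in CD123 KO cells and 45.7 in CD33/CD123 KO cells. IL3RA stood at 7.54, 4.80, 3.52 and 7.64 CPM in the same order. A small insertion or deletion need not lower the RNA, so these levels are a weak check of the labels.

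Promoters of members that were higher in the clones are shown first, because several belong to neighbouring genes whose start regions resemble each other. They were taken from RefSeq (GRCh38.p14) and run from 250 bases before to 50 after the most upstream listed start. Of the 196 members, 173 matched a promoter. The letters CCAATCA, on either strand, are in capitals. They were chosen after the sequences had been read. Those letters are a form of the CCAAT box, a common element of promoters. The set shows 4 called genes of a cluster between ZNF101 and ZNF254, and then ZNF382, which was called lower in 2 clones. ZNF506 of that cluster was also called higher against wt, but it matched no promoter and is not shown.
ZNF682, chr19:20039456-20039755, minus strand: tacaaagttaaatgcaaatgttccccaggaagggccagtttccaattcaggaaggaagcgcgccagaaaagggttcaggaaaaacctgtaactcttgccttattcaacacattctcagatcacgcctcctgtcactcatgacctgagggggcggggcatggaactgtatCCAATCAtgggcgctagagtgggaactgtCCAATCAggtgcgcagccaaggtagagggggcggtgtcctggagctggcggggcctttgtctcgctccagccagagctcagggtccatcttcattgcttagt
ZNF90, chr19:20077750-20078049, plus strand: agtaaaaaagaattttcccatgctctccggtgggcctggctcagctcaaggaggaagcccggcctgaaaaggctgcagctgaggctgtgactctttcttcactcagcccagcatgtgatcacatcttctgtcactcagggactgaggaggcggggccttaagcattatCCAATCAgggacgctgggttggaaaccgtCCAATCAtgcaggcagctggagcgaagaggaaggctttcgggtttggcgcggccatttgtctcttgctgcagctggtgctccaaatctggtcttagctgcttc
ZNF486, chr19:20166964-20167263, plus strand: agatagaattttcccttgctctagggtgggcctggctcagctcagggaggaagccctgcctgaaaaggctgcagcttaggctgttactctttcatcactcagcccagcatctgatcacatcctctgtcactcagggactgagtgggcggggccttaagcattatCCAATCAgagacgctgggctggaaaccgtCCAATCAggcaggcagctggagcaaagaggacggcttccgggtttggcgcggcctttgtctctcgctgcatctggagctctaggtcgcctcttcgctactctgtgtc
ZNF726, chr19:23914636-23914935, plus strand: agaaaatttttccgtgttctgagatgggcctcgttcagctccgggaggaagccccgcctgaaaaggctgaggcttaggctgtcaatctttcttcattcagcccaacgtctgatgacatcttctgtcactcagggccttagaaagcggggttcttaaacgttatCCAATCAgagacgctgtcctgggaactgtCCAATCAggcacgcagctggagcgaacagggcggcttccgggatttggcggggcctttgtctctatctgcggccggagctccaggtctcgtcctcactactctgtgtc
ZNF382, chr19:36605063-36605362, plus strand: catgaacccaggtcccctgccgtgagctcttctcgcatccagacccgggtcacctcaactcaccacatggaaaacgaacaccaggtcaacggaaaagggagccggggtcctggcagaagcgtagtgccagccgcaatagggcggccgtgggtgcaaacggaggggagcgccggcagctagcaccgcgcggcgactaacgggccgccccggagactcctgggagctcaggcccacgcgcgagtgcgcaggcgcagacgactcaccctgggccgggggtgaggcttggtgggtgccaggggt

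Each of the 4 cluster promoters held the letters at 2 places, and that of ZNF382 held none. Among other called members ZNF404, which was higher, also held none, ZNF320 and ZNF439 held 1 each, ZNF43 held 2 and ZNF556, outside the cluster, held 4. The letters stood in all 19 promoters matched to members of that cluster, and 11 of these held them at 2 or more places. They stood in 31 of 154 promoters of the other members (20.1%), and in 7.27% of 27305 RefSeq promoters of the same length. Promoters of the cluster shared 67.7% of aligned positions in the median pair. ZNF90 and ZNF486 shared 86.9%, whereas the closest match to ZNF682 in the cluster was ZNF430 with 70.4%. The cluster's promoters were also poorer in CG dinucleotides, with a median of 10 against 22 for the other members and 13 for all RefSeq promoters. The cluster members that were not called carried the letters at 1 or more places, so their presence does not set the called genes apart. The 4 called genes shown were among the 11 with 2 or more places. Whether the number of places goes with the calls was not tested. A match to letters is no evidence of binding.

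Across the members, levels in wt were low, with a median of 8.58 CPM. The medians were 10.6 CPM in CD33 KO cells, 9.56 in CD123 KO cells and 10.5 in CD33/CD123 KO cells. In all 4 groups, 185 members stood at 1 CPM or more, and 7 were below 1 CPM in wt: ZNF556, ZNF491, ZNF69, ZNF682, ZNF90, ZNF726 and ZNF404. Those 7 met the minimum only through a clone and so had to be higher there. Per kb of exon, the highest member in wt was ZNF146, a protein of fingers alone, with 49.9 CPM per kb. ZNF787 followed with 28.3, ZNF317 with 17.2, ZNF444 with 16.1, ZNF581 with 16 and ZNF358 with 14.6 CPM per kb. None of these 6 was called in a clone against wt. ZNF146 was at 192 ± 5.76 CPM (SD, n = 3) in wt, 208 ± 5.05 in CD33 KO cells, 222 ± 8.21 in CD123 KO cells and 200 ± 4.72 in CD33/CD123 KO cells. ZNF581 was higher at an adjusted p in all 3 clones, by 0.48, 0.37 and 0.20 on the log2 scale, and ZNF358 was lower in all 3, by log2 changes of -0.22, -0.33 and -0.33.

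The members as a group lay slightly above wt in each clone. Their median log2 fold change was 0.18 in CD33 KO cells, 0.16 in CD123 KO cells and 0.15 in CD33/CD123 KO cells. Over all genes tested it was -0.02, 0.01 and -0.01, and over 736 other genes of chromosome 19 it was -0.10, -0.03 and -0.09. ZNF genes of other chromosomes, 213 of which met the same minimum, had medians of -0.04, 0.05 and -0.01. Scaling by library size alone moved the median of all genes to -0.13, -0.01 and -0.12, and that of the members to 0.06, 0.13 and 0.04. The members' median lay above that of all genes by 0.20, 0.14 and 0.16 under both scalings. The 3 comparisons share the wt libraries.

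**Figure D1:**
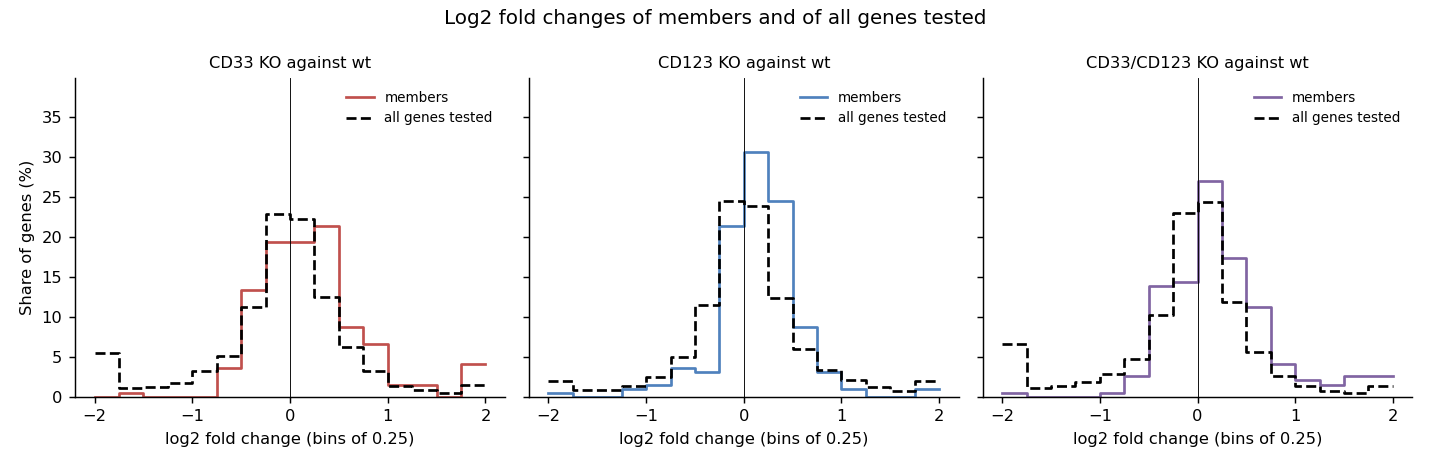
Share of genes (%) in bins of 0.25 of the log2 fold change against wt, for the 196 members (solid) and all 14010 genes tested (dashed), 1 panel per clone. The outermost bins also hold all larger changes. In the bin from 0.25 to 0.5 stood 21.4% of members against 12.5% of all genes in CD33 KO cells, 24.5% against 12.4% in CD123 KO cells and 17.3% against 11.9% in CD33/CD123 KO cells.

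By adjusted p alone (edgeR's quasi-likelihood test, under 0.05), 88 members were higher and 32 lower in CD33 KO cells. Among all genes tested, 30.6% were higher and 32.5% lower there. In CD123 KO cells 69 were higher and 23 lower, against 29.6% and 29.9% of all genes. In CD33/CD123 KO cells 81 were higher and 30 lower, against 28.8% and 29.8%. The members' own shares higher were 44.9%, 35.2% and 41.3%. Of the members past this threshold, 73.3%, 75% and 73% were higher. With library size alone those shares were 55.7%, 70% and 59.6%. In all 3 clones 43 members were higher and 3 were lower, namely ZNF358, ZNF302 and ZNF551 (the last ones named after their values were seen), against 14% and 14.9% of all genes. There were 36 members that passed in no clone.

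Few members changed by much. A member counted as called where the adjusted p was under 0.05 and the log2 fold change lay beyond 1.5 in size, the limits in the series design. In CD33 KO cells 8 members were called higher (1.96% of all genes tested were) and 1 lower (6.5%). In CD123 KO cells 2 were called higher (2.62%) and 1 lower (2.73%). In CD33/CD123 KO cells 10 were called higher (1.86%) and 1 lower (7.36%). Genes tested include some below the members' minimum. Over the 12677 tested genes that met it, 1.67%, 2.03% and 1.62% were called higher in the 3 clones and 5.02%, 2.22% and 5.8% lower. As shares of the members, 4.08%, 1.02% and 5.1% were called higher and 0.51% lower in each clone. Members below 1 CPM in wt made up part of this. Among members at 1 CPM or more in wt, 3, 0 and 6 were called higher. In CD123 KO cells 1 was called higher without its library 3, and 2 lower without wt library 1, where ZNF599 rose to the minimum and was counted too. Tested against the limit of 1.5 itself (edgeR's glmTreat), 1 was higher in CD123 KO cells and 6 in CD33/CD123 KO cells. In all, 12 members were called in at least 1 clone against wt, against 12.9% of all genes tested.

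**Figure D2:**
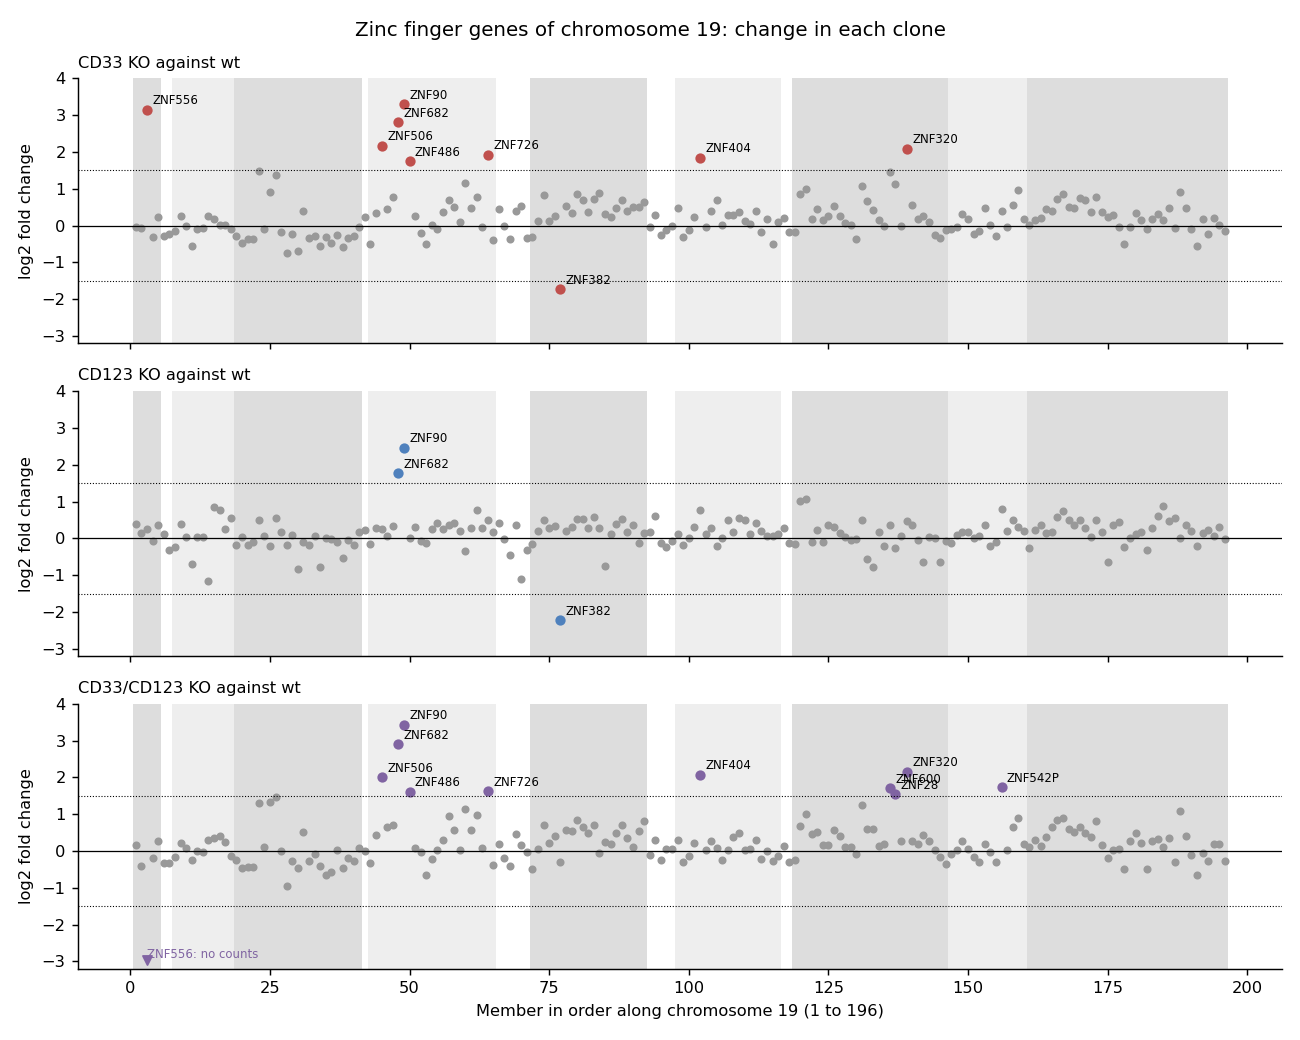
Log2 fold change against wt of the 196 members in their order along chromosome 19, 1 panel per clone. Coloured points were called, dotted lines mark 1.5 and -1.5, shaded bands are the 9 blocks with 5 or more members, and the triangle stands for ZNF556, which had no counts in CD33/CD123 KO cells. ZNF682 and ZNF90 stand above the upper line in all 3 panels.

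ZNF-named genes of chromosome 19, members or not, were joined into 20 blocks where neighbours lay no more than 500 kb apart. Of these blocks, 9 held at least 5 members and 180 members in all. The 12 members called against wt lay in 6 of those 9. The block from ZNF101 to ZNF254 (chr19:19778962-24312769 in hg19, the build of the files) had 5 of 23 members called against wt (21.7%), but 3 of the 5 were members only through clones where they were high. The block from ZNF554 to ZNF77 (chr19:2819872-2944969) had 1 of 5 (20%), which was also such a member, and the block from ZNF175 to ZNF331 (chr19:52074531-54083523) had 3 of 28 (10.7%). Among members at 1 CPM or more in wt, a limit set after the data were seen, the 3 blocks had 2 of 20 (10%), 0 of 4 and 3 of 28. No member was called against wt in the block from ZNF264 to ZNF446 near the end of the chromosome, which holds 36.

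In the block from ZNF101 to ZNF254, ZNF90 and ZNF682 were called higher in all 3 clones. Both were below 1 CPM in wt and met the minimum only through clones. A rise in at least 1 clone was thus built into their choice, and their p-values are no separate support for it. ZNF90 (chr19:20188803-20231977, 15 fingers) read 0.311, 0.591 and 0.473 CPM in the wt libraries and 5.41, 4.74 and 4.72 in CD33 KO cells. It read 2.89, 2.52 and 2.95 CPM in CD123 KO cells and 5.50, 4.85 and 6.01 in CD33/CD123 KO cells. All clone libraries lay above all wt libraries, and CD123 KO cells lay between wt and the others. Its log2 fold changes were 3.30 ± 0.18 (SE), 2.46 ± 0.20 and 3.43 ± 0.19, with adjusted p of 2.71e-14, 7.83e-11 and 3.94e-14. ZNF682 (chr19:20115227-20150277, 10 fingers) read 0.249, 0.462 and 0.756 CPM in wt and 3.85, 4.20 and 3.04 in CD33 KO cells. It read 1.22, 1.68 and 2.31 CPM in CD123 KO cells and 4.16, 3.84 and 3.64 in CD33/CD123 KO cells. The order of the groups was that of ZNF90, again without overlap with wt. Its log2 fold changes were 2.81 ± 0.25, 1.77 ± 0.28 and 2.90 ± 0.27, with adjusted p of 5.67e-10, 7.2e-06 and 1.26e-09. Without CD123 KO library 3 the change in that clone was 1.48, below the limit. In these bulk libraries more cells with a transcript and more RNA per cell cannot be told apart.

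ZNF506, ZNF486 and ZNF726 of that block were called higher in the 2 clones with the CD33 edit, and not in CD123 KO cells. ZNF486 (chr19:20278023-20311299), the next gene after ZNF90, read 7.28, 6.98 and 8.13 CPM in wt and 7.89, 7.03 and 7.72 in CD123 KO cells. It read 23.9, 25.7 and 25.8 CPM in CD33 KO cells and 22.2, 21.9 and 24.0 in CD33/CD123 KO cells. The 2 clones with the CD33 edit stood together, and CD123 KO cells overlapped wt. The log2 fold changes were 1.75 ± 0.08, 0.02 ± 0.09 and 1.61 ± 0.08, with adjusted p of 4.94e-16, 0.87 and 8.62e-15. The last change was 1.50, at the limit, with library size alone. ZNF506 (chr19:19903520-19932560) read 2.49, 2.01 and 2.80 CPM in wt and 2.04, 2.85 and 3.41 in CD123 KO cells. It read 10.3, 10.8 and 11.1 CPM in CD33 KO cells and 9.14, 9.95 and 9.71 in CD33/CD123 KO cells. It thus followed the pattern of ZNF486, with log2 fold changes of 2.17 ± 0.14, 0.24 ± 0.16 and 2.01 ± 0.15. ZNF726 (chr19:24097684-24116769) was lower in level, with means of 0.475 CPM in wt, 1.76 in CD33 KO cells, 0.651 in CD123 KO cells and 1.44 in CD33/CD123 KO cells. Its change of 1.63 ± 0.32 in the last was 1.22 without wt library 2. ZNF726 met the minimum only through the 2 clones with the CD33 edit, so a rise there was built into its choice. Against CD123 KO cells it was higher in CD33 KO cells by 1.42 ± 0.26 (adjusted p = 3.79e-05), short of the limit.

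The rest of that block moved less and in both directions. ZNF43 rose by 1.16 ± 0.11 in CD33 KO cells and 1.15 ± 0.12 in CD33/CD123 KO cells, and fell by 0.34 in CD123 KO cells. ZNF91, which represses SVA retrotransposons, was higher in all 3 clones, by 0.77, 0.77 and 0.99. ZNF93, a repressor of L1 elements, was higher by 0.79, 0.34 and 0.70. ZNF493 was higher by 0.70, 0.36 and 0.94, ZNF429 by 0.50, 0.42 and 0.58, ZNF738 by 0.36, 0.25 and 0.30, and ZNF14 by 0.34, 0.28 and 0.44. ZNF253 was higher in the 2 clones with the CD33 edit, by 0.45 and 0.64. Against these, ZNF101, ZNF714 and ZNF254 were lower in both of those clones, with log2 fold changes of -0.49, -0.50 and -0.39 in CD33 KO cells and -0.32, -0.65 and -0.37 in CD33/CD123 KO cells. ZNF430 was lower in CD33 KO cells, at -0.21. ZNF85 was higher in the CD33 KO and CD123 KO clones, by 0.27 and 0.31, and ZNF431, ZNF708, ZNF100 and ZNF675 only passed in CD123 KO cells, at 0.24, 0.43, 0.21 and 0.27. ZNF724P passed in none, at 0.49, 0.28 and 0.57. The block's median log2 fold changes were 0.45, 0.27 and 0.57. The 3 genes inside its span that are not ZNF genes and were tested were not called, with medians of 0.32, 0.01 and 0.38.

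In the block from ZNF175 to ZNF331 the called genes again differed from their neighbours. ZNF320 (chr19:53379425-53394599) read 5.42, 5.37 and 6.78 CPM in wt and 7.52, 7.84 and 9.10 in CD123 KO cells. It read 25.2, 24.5 and 25.0 CPM in CD33 KO cells and 25.3, 27.3 and 25.3 in CD33/CD123 KO cells. No clone overlapped wt, and the 2 clones with the CD33 edit were far above the third. The log2 fold changes were 2.09 ± 0.09, 0.48 ± 0.10 and 2.15 ± 0.09, with adjusted p of 1.3e-16, 0.000134 and 1.78e-16. ZNF28 (chr19:53300661-53324922) had means of 6.91 ± 0.187 CPM (SD, n = 3) in wt, 15.1 ± 0.0769 in CD33 KO cells, 5.84 ± 0.598 in CD123 KO cells and 20.1 ± 0.908 in CD33/CD123 KO cells. It was called in the last alone, at 1.54 ± 0.09, which was 1.43 with library size alone and 1.50 without library 1 of that clone. ZNF600 (chr19:53268748-53290034) had means of 2.49, 6.82, 3.20 and 8.07 CPM in the same order, and was called in the last at 1.71 ± 0.16. Of the 50-base runs in its transcript, 18.2% occur in other genes, most in ZNF611, so its level is uncertain. Between ZNF28 and ZNF320 lies ZNF468, at 17.2, 16.9, 17.7 and 20.2 CPM, and next to ZNF600 lies ZNF611, at 9.21, 9.06, 7.81 and 10.5 CPM. Both were chosen after their values were seen. The listed ZNF808, which binds primate-specific transposable elements, was higher in all 3 clones, by 1.07, 0.50 and 1.25. It shares 15.5% of its 50-base runs with other genes.

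ZNF556, in the block from ZNF554 to ZNF77, was the member with the most different pattern. It read 0.125, 0.0923 and 0.221 CPM in wt and 0.102, 0.168 and 0.214 in CD123 KO cells. It read 1.41, 1.14 and 1.19 CPM in CD33 KO cells and had no count in the 3 libraries of CD33/CD123 KO cells. Over each group these were 14, 18, 188 and 0 counts. It was called higher in CD33 KO cells, at 3.15 ± 0.38 (adjusted p = 1.33e-07). ZNF556 reached 1 CPM in CD33 KO cells alone, so it was a member only through that group and had to be high there. With 3 counts for the whole group as the floor, its level in CD33/CD123 KO cells was at least 2.61-fold lower than wt, 24.2-fold lower than CD33 KO cells and 3.20-fold lower than CD123 KO cells. The adjusted p against wt was 0.0052, and a fit of the compared groups alone did not call it against wt or CD123 KO cells. ZNF556 was the only member under 0.1 CPM in a group, and only there (0.51% of members). Of 12677 genes tested that met the same minimum, 0.181% were under that level in wt, 1.26% in CD33 KO cells, 0.213% in CD123 KO cells and 1.39% in CD33/CD123 KO cells, and 1.93% in at least 1 group. The block's other members moved less, between -0.41 (ZNF555 in CD33/CD123 KO cells) and 0.40 (ZNF554 in CD123 KO cells). In CD33 KO cells ZNF554 was at -0.03, ZNF555 at -0.06, ZNF57 at -0.31 and ZNF77 at 0.24.

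ZNF382, a KRAB repressor described as silenced by methylation in tumours, was the only member called lower in 2 clones. It read 3.49, 3.49 and 3.37 CPM in wt and 0.958, 0.900 and 1.25 in CD33 KO cells. It read 0.612, 0.868 and 0.715 CPM in CD123 KO cells and 2.77, 2.40 and 3.24 in CD33/CD123 KO cells. The 2 single knockouts were low and the double knockout was near wt, just below it. The log2 fold changes were -1.72 ± 0.18, -2.22 ± 0.20 and -0.30 ± 0.18, with adjusted p of 5.47e-09, 4.92e-10 and 0.159. Of the 21 members in its block, from ZNF565 to ZNF573 (chr19:36672962-38270230), 16 were higher in CD33 KO cells by adjusted p and only ZNF382 was lower, beside 30.6% and 32.5% of all genes tested. In CD123 KO cells 11 were higher and 2 lower, ZNF382 and ZNF585B (at -0.75, named after its value was seen), beside 29.6% and 29.9%. The block's medians were 0.49, 0.29 and 0.50. The block from ZNF653 to ZNF791 (chr19:11594242-12740676) had medians of -0.28, -0.11 and -0.26, and 12 of its 23 members were lower by adjusted p in CD33 KO cells while 4 were higher, beside the same 32.5% and 30.6% of all genes.

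The 2 remaining called members lie apart from these blocks' called genes. ZNF404 (chr19:44376515-44384288) had means of 0.690 CPM in wt, 2.43 in CD33 KO cells, 1.14 in CD123 KO cells and 2.81 in CD33/CD123 KO cells. It was called in the 2 clones with the CD33 edit, at 1.85 ± 0.21 and 2.07 ± 0.23. ZNF404 was below 1 CPM in wt and met the minimum only through the clones, so a rise was built into its choice. ZNF542P, named as a pseudogene (chr19:56879468-56891196), read 8.09, 7.63 and 7.47 CPM in wt, 10.3, 10.0 and 10.4 in CD33 KO cells, 12.9, 13.4 and 14.1 in CD123 KO cells and 27.1, 25.5 and 24.4 in CD33/CD123 KO cells. The 4 groups did not overlap, in that rising order. It was higher by 0.41 ± 0.08, 0.81 ± 0.08 and 1.74 ± 0.08, and was called in the last.

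**Figure D3:**
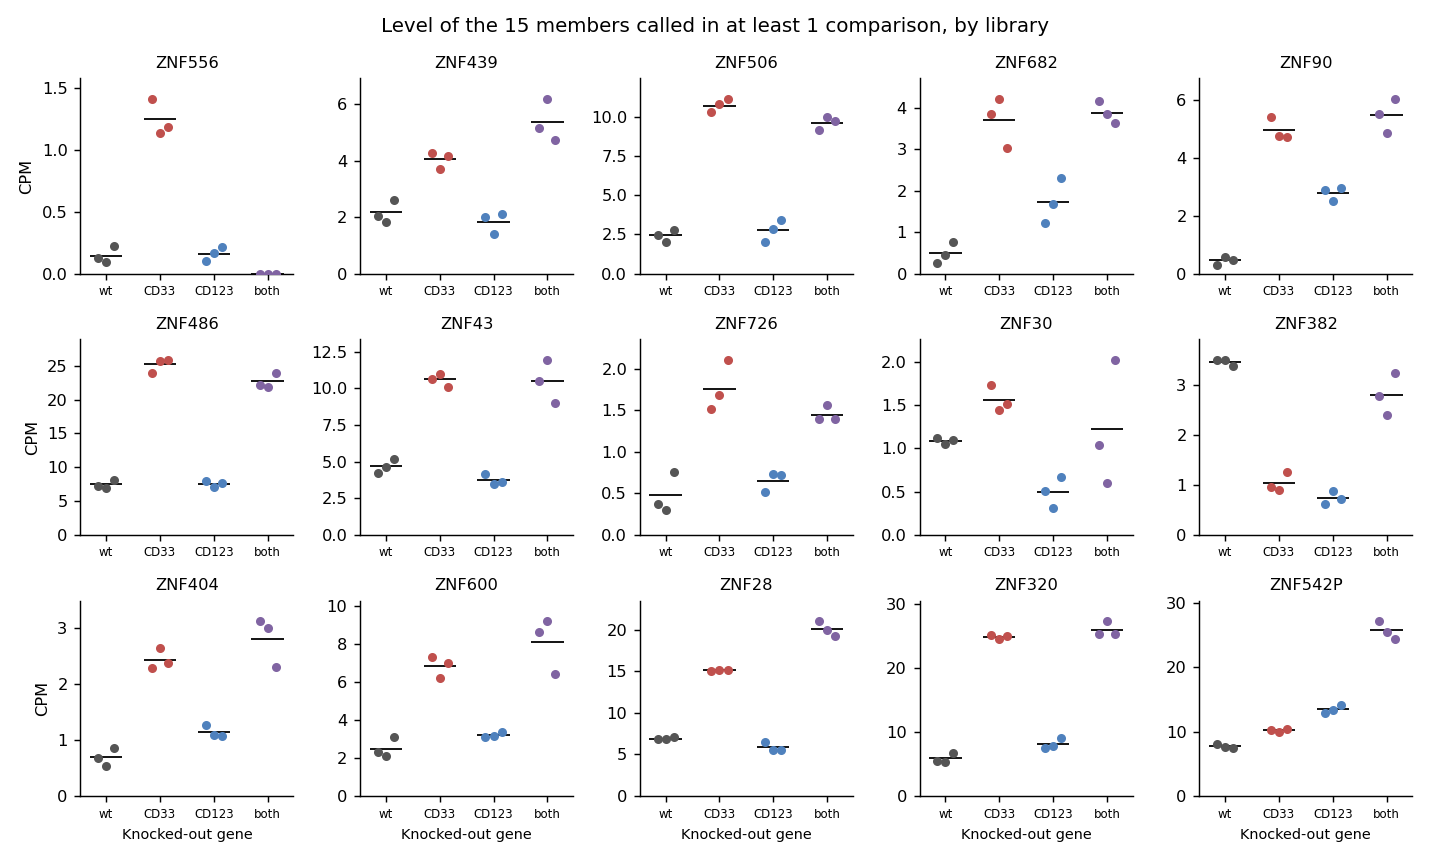
CPM on a linear axis in each library (points) and the group mean (bar) of the 15 members called in at least 1 of 6 comparisons, in chromosome order; wt, CD33, CD123 and both name the knocked-out gene. In ZNF506, ZNF486, ZNF43, ZNF28 and ZNF320 the CD33 and both columns lie above wt and CD123.

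Changes of neighbouring members were weakly correlated. Over 178 pairs of adjacent members in a block, the log2 fold changes had a Pearson r of 0.27 in CD33 KO cells, 0.19 in CD123 KO cells and 0.32 in CD33/CD123 KO cells. Spearman's rho was 0.32, 0.19 and 0.38. Between members 5 places apart r was -0.00, -0.00 and -0.04, and rho was 0.1, -0.0 and 0.07. Between members 10 places apart r was 0.07, 0.1 and 0.04, and rho was 0.14, 0.14 and 0.1. For adjacent members, r in CD33/CD123 KO cells includes the fitted change of ZNF556, which had 0 counts there. These are correlations across genes that share libraries and similar sequence, and genes are not independent replicates. Similar transcripts could share reads. The median member had 0.83% of its 50-base runs in another gene and 21 members had over 10%, led by ZNF417 with 38.2%. Apart from ZNF600, and ZNF542P, which was not compared, the called members had at most 7.96% (ZNF726). No other gene of the table overlapped a called member.

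The clones were also set against each other. In CD33 KO cells against CD123 KO cells 6 members were called higher (1.31% of all genes tested) and 0 lower (6.14%). Those 6 were ZNF556, a member only through CD33 KO cells, and ZNF506, ZNF486, ZNF43, ZNF30 and ZNF320. ZNF43 stood at the limit, at 1.50 ± 0.11, and lost its call without any 1 of CD33 KO libraries 1 or 2 or CD123 KO libraries 2 or 3, with values of 1.46 to 1.50. ZNF30 read 1.73, 1.44 and 1.52 CPM in CD33 KO cells against 0.51, 0.308 and 0.667 in CD123 KO cells, a change of 1.64 ± 0.30 that was 1.39 without CD123 KO library 2. By adjusted p alone 48 members were higher (31.7%) and 41 lower (33.2%). With library size alone the share higher fell from 53.9% to 37.4%. DESeq2 and limma-voom also called 0 lower, and glmTreat 3 higher.

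The CD33/CD123 KO and CD33 KO clones had the fewest members called between them. There 0 members were called higher (1.35%) and 1, ZNF556, lower (1.83%), which was a member only through CD33 KO cells. By adjusted p alone 11 were higher (13.5%) and 15 lower (14.5%). DESeq2 and limma-voom called 0 higher as well. Without CD33 KO library 3, 1 member was called higher. In CD33/CD123 KO cells against CD123 KO cells 6 were called higher (0.942%) and ZNF556 lower (6.7%). The 6 were ZNF506, ZNF486, ZNF28, ZNF320, ZNF382 and ZNF439. ZNF439 was at 5.36 ± 0.737 CPM against 1.84 ± 0.388 (SD, n = 3), a change of 1.53 ± 0.17, which was 1.37 without CD123 KO library 2 and 1.43 without CD33/CD123 KO library 2. With glmTreat 1 was higher. By adjusted p alone 51 were higher (29.7%) and 39 lower (29.9%), and the share higher fell from 56.7% to 40.4% with library size alone.

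The clones labelled as CD33 knockouts could be set against cells without that edit in 2 comparisons that share no library, CD33 KO against wt and CD33/CD123 KO against CD123 KO. Both compare clones, and CD33 RNA was still read. Both called 3 members higher, ZNF506, ZNF486 and ZNF320, of 8 and 6. By adjusted p 38 members were higher in both, which is 43.2% of the 88 and 74.5% of the 51. The same shares over all genes tested were 52.8% and 54.5%. Over the 196 members Pearson's r was 0.22 and Spearman's rho 0.53, and over all genes tested they were 0.59 and 0.43. For the CD123 edit (CD123 KO against wt, and CD33/CD123 KO against CD33 KO) the members' values were -0.06 and -0.07. Over all genes tested they were 0.07 and 0.03, so values near 0 were not particular to the members. Both members' r values include ZNF556, with fitted changes of 3.15 and -5.56 in the CD33 pair and 0.26 and -8.44 in the CD123 pair. Its fits on 0 counts depend on the prior count, and Pearson's r is sensitive to such values. No r without ZNF556 was computed, so the members' r cannot be read as weaker agreement than that of all genes. A test of the difference between the 2 CD33 comparisons was added after the data had been seen. It called 1 member positive (2.42% of all genes) and 3 negative (3.68%), namely ZNF90, ZNF682 and ZNF556. ZNF382 was the positive one, which fell against wt and rose by 1.92 ± 0.21 against CD123 KO cells.

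**Figure D4:**
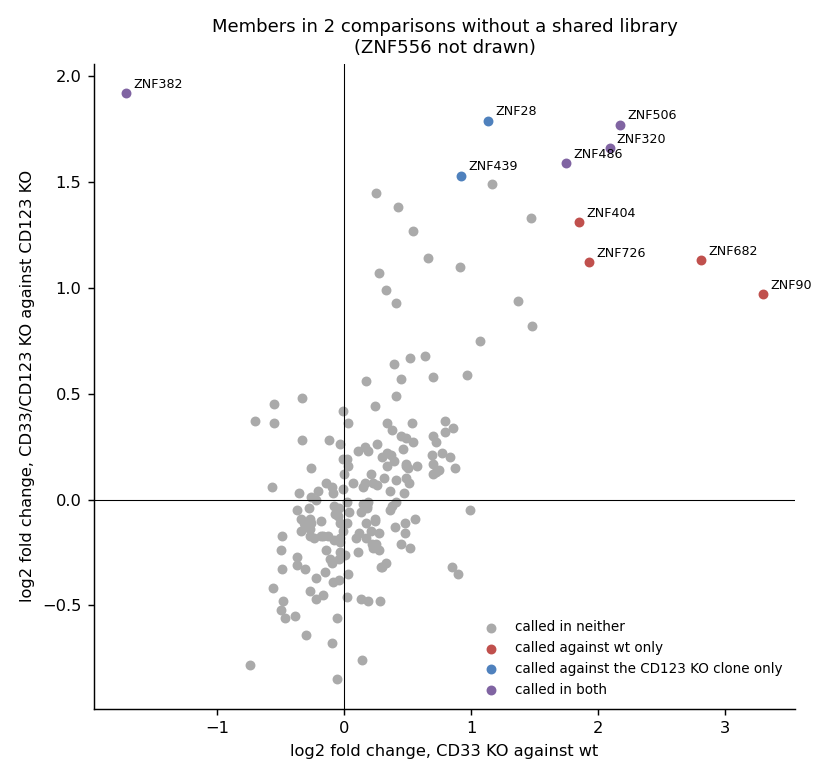
Log2 fold change of 195 members in CD33 KO cells against wt (horizontal) and in CD33/CD123 KO cells against CD123 KO cells (vertical), coloured by call. ZNF506, ZNF486 and ZNF320 were called higher in both, ZNF682 and ZNF90 rose by more against wt, and ZNF382 lies at the upper left.

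Members with a known role were taken from a list of 18, of which 16 were members (ZNF154 and ZNF568 were below the minimum) and 17 were tested. Of these, 0 were called higher in a clone against wt by edgeR, with a highest change of 1.25, and ZNF382 alone was called lower, in 2 clones. By adjusted p, 8, 12 and 7 were higher and 3, 1 and 4 lower in the CD33 KO, CD123 KO and CD33/CD123 KO clones. Over all members 44.9%, 35.2% and 41.3% were higher, and over all genes tested 30.6%, 29.6% and 28.8% were higher and 32.5%, 29.9% and 29.8% lower. Medians were 0.13, 0.34 and 0.07. ZNF649, a KRAB repressor, went from 2.78 CPM in wt to 5.31, 5.60 and 5.39 CPM. ZNF587 and ZNF417, which repress the endogenous retrovirus HERV-K, were higher by 0.33, 0.62 and 0.32 and by 0.48, 0.46 and 0.35. They share many runs of sequence, and their reads may be split. ZNF304, which takes part in silencing of the INK4-ARF locus, was higher by 0.41 and 0.65 in the 2 clones with the CD33 edit. ZNF224, a partner of WT1, ZNF675, an inhibitor of TRAF6 signalling, and ZNF296, a factor of pluripotent cells, passed in CD123 KO cells, at 0.51, 0.27 and 0.28. ZNF274, which brings SETDB1 to zinc finger genes, was higher in CD123 KO cells, by 0.54, and lower in CD33/CD123 KO cells, at -0.31. ZNF473, which acts in histone mRNA processing, and ZNF444, a SCAN-domain factor, were lower in the 2 clones with the CD33 edit, at -0.18 and -0.27 in CD33 KO cells and -0.29 for both in CD33/CD123 KO cells. The imprinted ZNF331 was lower in CD33/CD123 KO cells, at -0.36.

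Partners of these proteins were read from a list of their own. Of 42 tested genes for the TRIM28 corepressor and for heterochromatin, 0 were called by edgeR in any comparison, and changes against wt lay between -0.80 and 0.87. Over all genes tested 8.45%, 5.35% and 9.21% were called in the 3 clones against wt. By adjusted p 9, 7 and 10 were higher and 19, 20 and 13 lower in the 3 clones, with medians of -0.08, -0.12 and -0.07. Over all genes tested 30.6%, 29.6% and 28.8% were higher and 32.5%, 29.9% and 29.8% lower. TRIM28 was at 597 CPM in wt and at 555, 493 and 561 CPM in the CD33 KO, CD123 KO and CD33/CD123 KO clones. SETDB1 was at 172, 153, 162 and 148 CPM in the same order.

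Features that the choice of members did not use were read from GENCODE 29 coding transcripts, found for 192 members. The median member encoded 12 fingers, and the range was 0 to 31 (ZNF91). A finger was counted as C, 2 to 4 residues, C, 12 residues, H, 3 to 5 residues, H. A KRAB letter pattern, which misses some divergent boxes, was found in 158 (82.3%) and not in 34. Members with it were lower in level, at a median of 2.19 against 6.05 CPM per kb in wt. Their median log2 fold changes were 0.22, 0.18 and 0.19 in the 3 clones, against -0.00, 0.04 and -0.00 without it.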

How the data were processed

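The authors deposited 1 table of counts per gene and library, not normalized. Reads were aligned to hg19 with HISAT2 and counted with featureCounts, and edgeR was used, per the submitters' processing notes. Versions, strand and multimapping settings: not given in the sources used here. Reads shared by similar genes may be split or lost. The libraries were made with a strand-marking kit and RNA of high integrity, per the labels' protocols. Gene positions and the exon Length column, in bases, came with the deposited counts.

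Groups followed the labels. After filterByExpr and TMM scaling, all 12 libraries entered a single edgeR model (version 4.0.16 in R 4.3.3) with robust quasi-likelihood F-tests and no covariates. P-values were adjusted by Benjamini-Hochberg over 14010 genes in each of 6 comparisons. The common coefficient of biological variation came to 5.41%, with 8 residual degrees of freedom. CPM values use TMM-scaled library sizes, and standard errors were derived from the F statistic. The script was tested on simulated data.

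The members and gene lists were chosen with earlier results of these data known. Named genes were, per comparison, the 6 called members with the largest rise and fall and no overlap between libraries, members called alike in all 3 clones, the 6 highest per kb in wt, the listed roles, all members of the 2 blocks with the largest share called, the corepressors TRIM28 and SETDB1, CD33 and IL3RA. Others were chosen after their values were seen. Promoters matched by symbol in RefSeq (GRCh38.p14), and those positions are kept apart from hg19. Alternatives were RLE scaling, scaling by library size, omission of the low-count filter, DESeq2 1.42.0, limma-voom (limma 3.58.1), a fit of the compared groups alone, adjusted p alone, glmTreat, other minimum levels, leaving out members with over 10% shared sequence, and each library left out.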

Additional observations from a re-analysis of the deposited data

Results flagged for a closer look

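CD33 KO cells were set against wt and, separately, CD33/CD123 KO cells against CD123 KO cells. The change of 4 members differed between these comparisons past both limits (edgeR's quasi-likelihood test, adjusted over 14010 genes). A difference was positive where the change against CD123 KO cells was the higher one. Of the members 1 was positive and 3 were negative, beside 2.42% and 3.68% of all genes tested, so such differences were not particular to the members. This test was added after the data had been seen. ZNF90, ZNF682 and ZNF556 stood below 1 CPM in wt, at 0.458, 0.489 and 0.146, and were members only through clones where they were high, so a large change of CD33 KO against wt is built into their choice. Each genotype is 1 clone, so the difference cannot be told apart from a difference between clones.

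ZNF382 differed by 3.64 ± 0.28 (SE) on the log2 scale, with an adjusted p of 5.81e-11. It was low in each single knockout and near wt in CD33/CD123 KO cells. ZNF90 differed by -2.33 ± 0.25 (adjusted p = 1.71e-08), and ZNF682 by -1.68 ± 0.34 (adjusted p = 0.000246). Both were higher in every clone, and CD123 KO cells already stood above wt. ZNF556 had a fitted difference of -8.70 (adjusted p = 6.04e-06). That size depends on the prior count, since CD33/CD123 KO cells had 0 counts, and it is no bound.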

How the results depend on the processing

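DESeq2, limma-voom and the absence of a low-count filter left every count of called members within 1.5 times its value. RLE scaling gave a median of 0.17 in CD33 KO cells. Library size alone gave medians of 0.06, 0.13 and 0.04 and 2 members called lower in CD123 KO cells. The second was ZNF599, which met the minimum on those levels, and of the 196 members 1 was called lower as before. With it ZNF28 and ZNF486 lost their calls in CD33/CD123 KO cells, at 1.43 and 1.50, as did ZNF43 (CD33 KO against CD123 KO, 1.41) and ZNF439 (CD33/CD123 KO against CD123 KO, 1.45). With the 2 compared groups alone, 0 members were lower in CD33/CD123 KO cells against wt or against CD123 KO cells. Adjusted p alone gave 88 higher and 32 lower for CD33 KO against wt, 69 and 23 for CD123 KO against wt, and 81 and 30 for CD33/CD123 KO against wt. It gave 48 and 41 for CD33 KO against CD123 KO, 11 and 15 for CD33/CD123 KO against CD33 KO, and 51 and 39 for CD33/CD123 KO against CD123 KO. With glmTreat 0 were lower in CD33 KO cells, 1 was higher in CD123 KO cells, and 6 were higher and 0 lower in CD33/CD123 KO cells against wt. It left 3 higher in CD33 KO against CD123 KO, and 1 higher and 0 lower in CD33/CD123 KO against CD123 KO. A mean of at least 1 CPM over all 12 libraries removed ZNF556 and left 0 lower in the 3 comparisons of CD33/CD123 KO cells. A mean of at least 1 CPM in wt, added after the data were seen, also left 0 lower there, and 3, 0 and 6 higher against wt in the CD33 KO, CD123 KO and CD33/CD123 KO clones. A level of 0.2 CPM put 1 member below it in wt and 1 in CD123 KO cells. The cause of these shifts was not tested, other than the fewer genes kept.

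Leaving out each library in turn moved the medians between 0.16 and 0.22, 0.12 and 0.16, and 0.14 and 0.17 in the CD33 KO, CD123 KO and CD33/CD123 KO clones. In CD123 KO cells 1 to 2 members were higher and 1 to 2 lower, the last without wt library 1, again with ZNF599 counted. CD33/CD123 KO against CD33 KO had 0 to 1 higher. ZNF28 was at 1.50 in CD33/CD123 KO cells without its library 1. No called value changed direction, but uncalled ones near 0 did, such as ZNF30 in CD33/CD123 KO cells (-0.36 to 0.45), ZNF224 in CD33 KO cells (-0.05 to 0.26), and in CD123 KO cells ZNF556 (-0.16 to 0.72) and ZNF486 (-0.05 to 0.09). Elsewhere leaving out a library gave 8 to 10 higher for CD33 KO and 9 to 11 for CD33/CD123 KO against wt, 4 to 7 for CD33 KO and 5 to 8 for CD33/CD123 KO against CD123 KO. Depth limits members near 1 CPM and below, and ZNF556 rests on 14 counts over the wt libraries. No paired analysis was possible because the labels number the libraries through the series, so that no number is shared between groups.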

Other observations

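Some ZNF genes of chromosome 19 below the minimum were still tested, 8 in all, and 4 of them were called in a clone against wt, beside 12.9% of all genes tested. They were named after their values were seen. ZNF880 (chr19:52873170-52889046) had 63 counts over the wt libraries, a mean of 0.560 CPM, and then 1, 0 and 0 counts in the CD33 KO, CD123 KO and CD33/CD123 KO clones. ZNF599 was at 0.978 CPM in wt, 0.911 in CD33 KO cells, 0.145 in CD123 KO cells and 0.676 in CD33/CD123 KO cells. ZNF781 and ZNF114 were near 0 in wt, at 0.0867 and 0.0889 CPM, and reached 0.665 and 0.420 CPM in CD33 KO cells. They stood at 0.348 and 0.282 CPM in CD123 KO cells and at 0.659 and 0.819 CPM in CD33/CD123 KO cells.

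Among the corepressor genes, HDAC2, a histone deacetylase of the NuRD complex, was at 194 CPM in wt and at 352, 262 and 355 CPM in the CD33 KO, CD123 KO and CD33/CD123 KO clones. The DNA methyltransferase DNMT3A was at 71.9, 41.2, 59.5 and 43.0 CPM in the same order. UHRF1, which guides maintenance methylation, was at 161, 123, 94.3 and 110 CPM. These genes were picked after their values were seen, and no link to the zinc finger genes was tested.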
